A study of Mus musculus with 5 samples.

Results

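The Cyp4 genes encode cytochrome P450 enzymes that place a hydroxyl group at or near the methyl end of fatty acids and eicosanoids. The genes examined were chosen by the strain differences that some of them showed on these same arrays, so those differences are a description. They were Cyp4a10, Cyp4a12a, Cyp4a12b, Cyp4a14, Cyp4b1, Cyp4f13, Cyp4f14, Cyp4f15 and Cyp4v3, and all probe sets that the annotation of the array assigns to them were taken, including one shared with another Cyp4 gene. Of the 9 members, 8 had a probe set, and 7 of them were among the 18193 genes with a probe set of their own on the array. The probe sets numbered 9, because Cyp4v3 had 2, and Cyp4a12b had none by its own symbol. Cyp4a10 was read by a single probe set that also matches Cyp4a31. All 9 probe sets were detected on all 5 arrays.

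Liver RNA was hybridised to 1 array for each of 5 inbred strains, namely NZW/LacJ, C57BL/6J, RIIIS/J, FVB/NJ and BALB/CByJ. Each array held RNA pooled from 3 males of 10 weeks that received no treatment, and no allele or agent was added in any strain. The series followed up an expression locus that had been identified before. With 1 array per strain there were no replicates, so no value has an error between animals, no test was run, and no order of neighbouring strains can be set against a replicate spread.

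In liver, omega hydroxylation is the first step of a minor route of fatty acid breakdown. The hydroxyl group is oxidised to a carboxylic acid by alcohol and aldehyde dehydrogenases, and the resulting dicarboxylic acids are shortened in peroxisomes. Mouse Cyp4a10 and Cyp4a14 are known as targets of the nuclear receptor PPAR-alpha and rise with fasting and fibrate drugs, whereas Cyp4a12a is known for its dependence on male hormones. Cyp4f enzymes act on leukotrienes and on the side chains of fat-soluble vitamins.

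The summed intensity of 8 hepatocyte markers ranged from 280461 in FVB/NJ to 344731 in RIIIS/J, and 0 of 8 were at least 2-fold from the closest other strain. Apob, the apolipoprotein B gene, had the widest range of the 8, with 41565 in RIIIS/J and 13752 in NZW/LacJ. Signals of other cells stood out on 2 arrays. The summed intensity of 7 B cell markers was 20027 in FVB/NJ and 59.6 to 314 in the other 4 strains, and all 6 of these markers that were detected were at least 2-fold higher there. The summed intensity of 7 exocrine pancreas markers was 55367 in RIIIS/J and 713 to 1294 in the other 4 strains, and all 7 were at least 2-fold higher there. FVB/NJ also had the highest summed intensity of Kupffer cell and macrophage markers, 8278 against 3685 to 6642, and of erythroid markers, 6287 against 1274 to 3747. Of the 12 Kupffer cell and macrophage markers, 3 were at least 2-fold higher there, namely Marco, Timd4 and Lyz2. Clec4f and Cd5l of the same list, named after their values were seen, read 600 and 651 in FVB/NJ. Both were highest in NZW/LacJ, at 1152 and 1678. Of 4 detected erythroid markers, Hbb-b2, Slc4a1 and Bpgm were at least 2-fold higher in FVB/NJ. Alas2 was highest in NZW/LacJ, at 3444 against 2861 in FVB/NJ. The part of these cells in the Cyp4 readings was not tested. For the Cyp4a probe sets, Cyp4b1, Cyp4f13 and Cyp4f14, larger shifts in gap or range without FVB/NJ, RIIIS/J or both are given. Smaller shifts are left out. The gene lists, nearest genes, pairs and neighbouring genes are given with all 5 arrays only. In whole liver, fewer cells of a type and less RNA per cell cannot be told apart.

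Promoter windows in the RefSeq table for GRCm38.p6 were found for 5 members, Cyp4b1, Cyp4f13, Cyp4f14, Cyp4f15 and Cyp4v3. No window was found for Cyp4a10, Cyp4a12a, Cyp4a12b or Cyp4a14, so the search below does not cover them. The windows of Cyp4b1 (chr4:115647672-115647971, minus strand) and of the first listed start of Cyp4f14 (chr17:32917307-32917606, minus strand) are shown because C57BL/6J was the highest strain for Cyp4b1 and the lowest for Cyp4f14. Capitals mark the 50 bases from the annotated transcription start onwards.
Cyp4b1: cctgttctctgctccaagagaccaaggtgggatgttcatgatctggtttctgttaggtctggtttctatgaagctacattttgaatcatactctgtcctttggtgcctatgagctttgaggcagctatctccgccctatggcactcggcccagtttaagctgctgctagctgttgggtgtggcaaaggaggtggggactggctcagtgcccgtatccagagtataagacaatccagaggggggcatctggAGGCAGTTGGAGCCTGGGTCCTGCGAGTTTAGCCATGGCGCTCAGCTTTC
Cyp4f14: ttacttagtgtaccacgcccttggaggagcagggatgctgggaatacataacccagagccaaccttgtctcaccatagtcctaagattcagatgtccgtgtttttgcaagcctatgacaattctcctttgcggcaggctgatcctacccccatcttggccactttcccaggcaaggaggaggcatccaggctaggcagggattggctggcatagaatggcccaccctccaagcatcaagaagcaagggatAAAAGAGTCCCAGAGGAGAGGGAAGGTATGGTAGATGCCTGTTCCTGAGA
The hexamer AGGTCA, the unit that nuclear receptors such as PPAR-alpha recognise, was searched on both strands. It was in 0 of the windows of the 5 members, including all 4 windows of Cyp4f14, and in 16.3% of the 32851 promoter windows of the table. These letters are not in the windows of these 5 members, which says nothing on sites elsewhere or on the Cyp4a members.

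The Cyp4a genes of chromosome 4 held the 2 widest differences among the strains and, in Cyp4a12a, one under 2-fold. Cyp4a14, a fatty acid hydroxylase gene, read an intensity of 3879.5 in C57BL/6J, against 86.9 in FVB/NJ, 65.7 in RIIIS/J, 29.3 in BALB/CByJ and 9.71 in NZW/LacJ. The C57BL/6J array was 44.6-fold above the next strain, and the other 4 lay within 8.96-fold of each other. The NZW/LacJ value stood just above the detection floor, an intensity of 8.49 set at the 95th percentile of 83 chemosensory receptor probe sets. NZW/LacJ was 3.02-fold below the next strain.

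The probe set shared by Cyp4a10 and Cyp4a31 read 12688 in C57BL/6J, against 4229 in RIIIS/J, 2706 in FVB/NJ, 742 in BALB/CByJ and 98.1 in NZW/LacJ. Cyp4a10 encodes a lauric acid hydroxylase, and Cyp4a31 is a close relative next to it on the chromosome. C57BL/6J was 2.99999-fold above the next strain and NZW/LacJ was 7.56-fold below the next. The 2 probe sets assigned to Cyp4a31 alone read 5.17 to 8.43, all under the floor. How much of the shared signal came from each gene was not tested.

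Both of these probe sets had C57BL/6J highest, BALB/CByJ next to lowest and NZW/LacJ lowest, and they differed in the order of FVB/NJ and RIIIS/J. The distance from C57BL/6J was larger for Cyp4a14. C57BL/6J exceeded BALB/CByJ by 132-fold for Cyp4a14 and by 17.1-fold for the shared probe set. C57BL/6J exceeded RIIIS/J by 59.0-fold for Cyp4a14 and by 2.99999-fold for the shared probe set. NZW/LacJ was, in the same way, further below C57BL/6J for Cyp4a14, by 399.6-fold, than for the shared probe set, by 129-fold. Its distances from RIIIS/J and FVB/NJ had the opposite order. NZW/LacJ was 43.1-fold below RIIIS/J on the shared probe set and 6.77-fold below RIIIS/J on Cyp4a14. NZW/LacJ was likewise 27.6-fold below FVB/NJ on the shared probe set and 8.96-fold below FVB/NJ on Cyp4a14. Since the Cyp4a14 reading in NZW/LacJ is close to the floor, its lower distances are limited by it.

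Without the FVB/NJ array C57BL/6J was 59.0-fold above the next strain for Cyp4a14, and without RIIIS/J it was 4.69-fold above the next for the shared probe set. Without both arrays these gaps were 132-fold and 17.1-fold. The gaps of NZW/LacJ below its nearest strain, BALB/CByJ, were the same with and without those arrays, at 3.02-fold for Cyp4a14 and 7.56-fold for the shared probe set.

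Cyp4a12a, which encodes the main arachidonic acid omega hydroxylase of male mice, had another order. It read 15367 in NZW/LacJ, against 10682 in FVB/NJ, 10528 in BALB/CByJ, 10085 in C57BL/6J and 8974 in RIIIS/J. NZW/LacJ, the lowest strain for the other Cyp4a probe sets, was 1.44-fold above the next strain here. The remaining 4 strains lay close together, with steps between neighbours of 1.01-fold, 1.04-fold and 1.12-fold. Its whole range was 1.71-fold, or 1.52-fold without RIIIS/J. Cyp4a12b is a near-identical copy with no probe set by its own symbol, so signal of both genes on this probe set cannot be told apart.

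Cyp4b1 lies at the far end of the Cyp4a cluster and is known for its high level in lung, where its enzyme activates plant toxins. It read 455 in C57BL/6J, against 289 in BALB/CByJ, 253 in NZW/LacJ, 202 in RIIIS/J and 197 in FVB/NJ. C57BL/6J was 1.57-fold above the next strain, and the range was 2.31-fold. FVB/NJ and RIIIS/J were the lowest strains and differed by 1.02-fold. Without those 2 arrays the range was 1.79-fold, under the 2-fold limit used here. Of 7 lung epithelial markers 2 were detected, and the summed intensity of the list was 45.2 in C57BL/6J and 39.98 to 46.9 in the other strains.

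**Figure D1:**
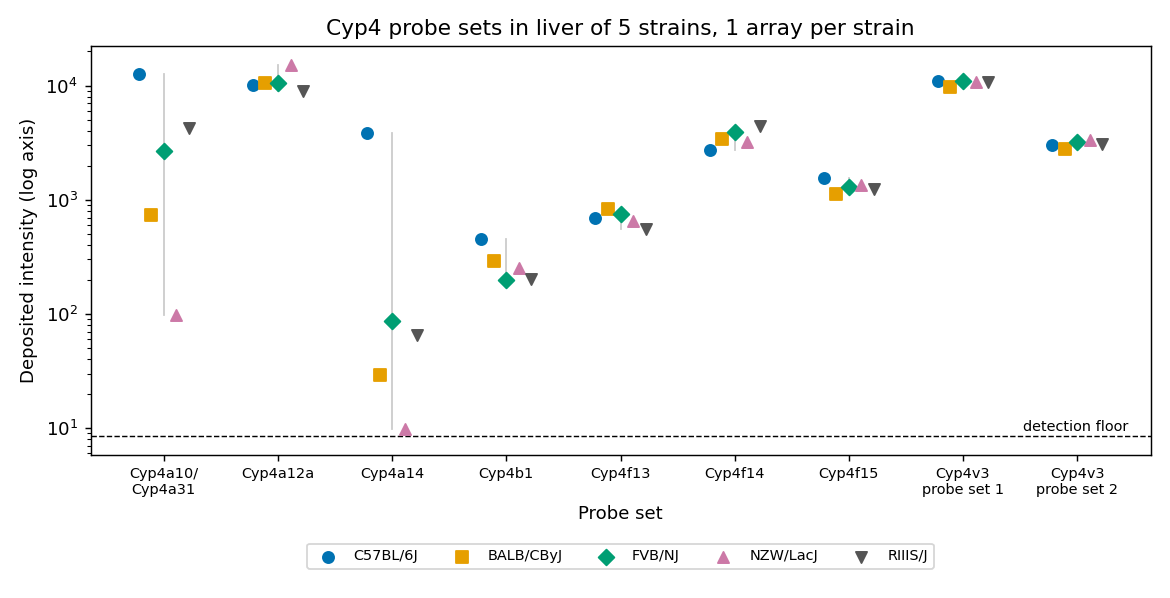
Deposited intensity (log axis) of the 9 Cyp4 probe sets by strain, 1 point per array, with the dashed line at the detection floor of 8.49 and grey bars from the lowest to the highest strain. Cyp4a14 and the probe set shared by Cyp4a10 and Cyp4a31 spread over 399.6-fold and 129-fold, and the Cyp4f and Cyp4v3 probe sets stay within 1.62-fold.

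The Cyp4f genes of chromosome 17 ranged by less than 2-fold, around the median range of 1.57-fold over all detected probe sets. The share of detected probe sets with a wider range was 46.8% for Cyp4f14, 54.6% for Cyp4f13 and 63.0% for Cyp4f15. Cyp4f14, whose enzyme hydroxylates leukotriene B4 and the side chain of vitamin E, read 2746 in C57BL/6J, against 3243 in NZW/LacJ, 3405 in BALB/CByJ, 3897 in FVB/NJ and 4448 in RIIIS/J. C57BL/6J was thus the lowest strain, 1.18-fold below the next, where it was the highest for Cyp4a14, the shared Cyp4a10 probe set and Cyp4b1. The range of Cyp4f14 was 1.62-fold, and 1.24-fold without FVB/NJ and RIIIS/J.

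Cyp4f15, of the same subfamily, read 1566 in C57BL/6J, against 1337 in NZW/LacJ, 1301 in FVB/NJ, 1253 in RIIIS/J and 1130 in BALB/CByJ. Cyp4f13, another member of the subfamily, read 828 in BALB/CByJ, against 749 in FVB/NJ, 699 in C57BL/6J, 657 in NZW/LacJ and 555 in RIIIS/J. Their ranges were 1.39-fold and 1.49-fold, and that of Cyp4f13 was 1.26-fold without RIIIS/J. The 3 Cyp4f genes did not share an order of strains, and each had a different highest strain.

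Cyp4v3, the mouse counterpart of the human gene mutated in Bietti crystalline dystrophy of the retina, was the flattest member. Its more intense probe set read 11022 in C57BL/6J, 10986 in FVB/NJ, 10857 in NZW/LacJ, 10857 in RIIIS/J and 9765 in BALB/CByJ, a range of 1.13-fold. The values of NZW/LacJ and RIIIS/J were exactly equal, as happened between arrays for 36.5% of the probe sets detected on all 5 arrays. The second probe set read 3336 in NZW/LacJ, 3235 in FVB/NJ, 3069 in RIIIS/J, 3032 in C57BL/6J and 2770 in BALB/CByJ, a range of 1.20-fold. BALB/CByJ was lowest on both. The strain profiles of the 2 probe sets, each centred on its mean, differed by at most 0.091 on the log2 scale in any strain. Over 4555 genes with at least 2 probe sets detected on all arrays, that difference had a median of 0.17 and a 95th percentile of 0.80.

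Calls were made per strain, with a 2-fold step from the closest remaining strain, upwards or downwards, as the limit. Of the 9 Cyp4 probe sets, 2 were called higher in C57BL/6J, against 0.523% of all 25049 detected probe sets, and 0 lower, against 0.435%. In NZW/LacJ 2 were called lower, against 0.743% of all, and 0 higher, against 0.826%. These were Cyp4a14 and the shared Cyp4a10 probe set in both cases. In BALB/CByJ 0 were called in either direction, against 0.77% of all called higher and 0.403% lower. In FVB/NJ 0 were called, against 5.33% higher and 0.499% lower. In RIIIS/J 0 were called, against 1.43% higher and 1.61% lower. The members had been chosen with these values known, so the counts describe them and support nothing further.

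The highest strain was at least 2-fold above the lowest for 3 of 9 Cyp4 probe sets, beside 30.3% of all detected probe sets and 30.9% of all detected genes. The median range was 1.62-fold over the 9 Cyp4 probe sets and 1.57-fold over all detected probe sets. The family as a whole was thus near the array's background, while a pair of its probe sets lay at the far end. Among the 25049 detected probe sets, 30 had a wider range than Cyp4a14 and 63 a wider range than the shared Cyp4a10 probe set. For Cyp4b1 the share with a wider range was 22.6%, and for the more intense Cyp4v3 probe set it was 85.2%.

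**Figure D2:**
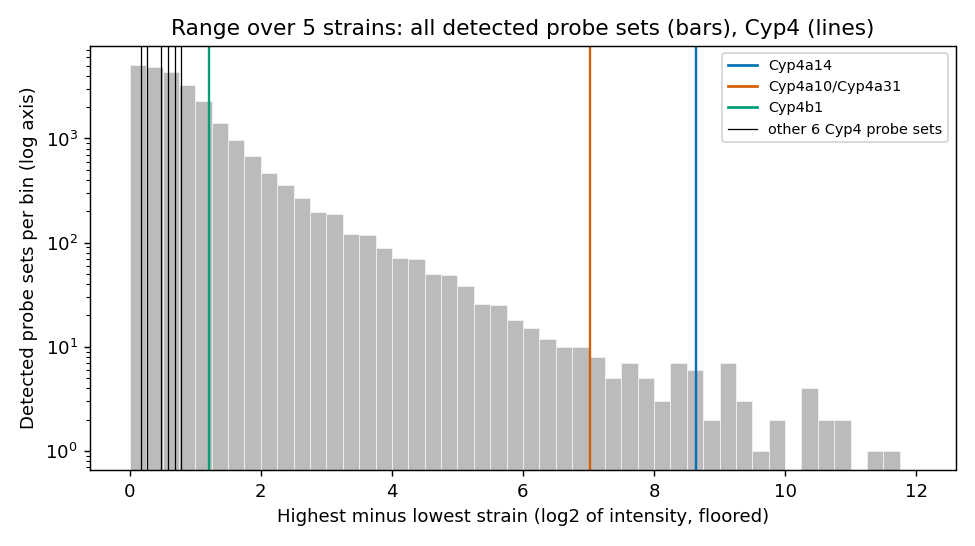
Number of detected probe sets (bars, log axis) by the log2 difference between the highest and the lowest strain, with lines for the 9 Cyp4 probe sets. Cyp4a14 at 8.64 and the shared Cyp4a10 probe set at 7.02 lie in the tail, Cyp4b1 lies at 1.21, and the other 6 lie between 0.17 and 0.78.

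The 5 strains form 10 pairs, which share arrays and are not independent. Cyp4a14 and the shared Cyp4a10 probe set were each at least 2-fold apart in 9 of the 10 pairs, as were 0.12% of all detected probe sets. For both, the pair within 2-fold was FVB/NJ and RIIIS/J, with FVB/NJ 1.32-fold above RIIIS/J for Cyp4a14 and RIIIS/J 1.56-fold above FVB/NJ for the shared probe set. Cyp4b1 was at least 2-fold apart in 2 pairs, with C57BL/6J higher than FVB/NJ, as for 2.47% of all detected probe sets, and higher than RIIIS/J, as for 4.99%. The Cyp4a12a, Cyp4f and Cyp4v3 probe sets were at least 2-fold apart in 0 pairs. C57BL/6J was the highest strain for 5 of the 9 probe sets and the lowest for 1, whereas BALB/CByJ was the highest for 1 and the lowest for 3. These counts take any lead, such as the 1.003-fold of C57BL/6J on the more intense Cyp4v3 probe set. They were not set beside those of all detected probe sets.

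Of the Cyp4 genes outside the members, 7 had a probe set. Cyp4f18 was the one at least 2-fold apart, called higher in FVB/NJ, as were 6.01% of all detected genes. Cyp4f18, which encodes a leukotriene hydroxylase of mouse neutrophils, read 56.4 in FVB/NJ, against 9.54 to 9.84 in the other 4 strains. Its other probe set was under the floor on every array. The summed intensity of 8 neutrophil markers was 631 in FVB/NJ and 52.6 to 91.1 in the other strains, with S100a8, S100a9 and Ngp apart. Csf3r, a receptor gene of mature neutrophils, read 8.40 in FVB/NJ and 8.54 to 8.81 in the other strains, and Cxcr2, Camp, Mpo and Elane were under the floor on every array. The part of these cells in the Cyp4f18 signal was not tested. The highest readings of Cyp4f39, Cyp4f16 and Cyp4a31 were 10.4, 9.24 and 8.43, and Cyp4x1, Cyp4f41-ps and the probe set shared by Cyp4f37 and Cyp4f16 were under the floor on every array.

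For each member with a range of at least 2-fold, the 5 genes with the most similar strain profile were listed. Likeness was the root mean square difference, over the 5 strains, between log2 profiles centred on their means, and 11871 detected genes were compared. The gene closest to Cyp4a14 was Vnn1, a pantetheinase gene, with a difference of 1.15. It read 2557 in C57BL/6J and 33.0 to 45.5 in the other strains, without the further drop in NZW/LacJ that Cyp4a14 had. Zfp874a, Gm7969, Olig1 and Pttg1 followed at 1.25 to 1.72, and the first 3 of these were under the floor outside C57BL/6J, so a lower value in NZW/LacJ could not have been seen in them.

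The gene closest to the shared Cyp4a10 probe set was Cyp2c23, listed as Cyp2c44 in older names, which encodes an arachidonic acid epoxygenase. Its difference was 1.05. Cyp2c23 read 10741 in C57BL/6J, 10558 in RIIIS/J, 10473 in FVB/NJ, 599 in BALB/CByJ and 420 in NZW/LacJ. Like the Cyp4a10 probe set it was low in BALB/CByJ and lowest in NZW/LacJ, but the 3 higher strains lay together. Gm4951, Reep3, Fam126b and Akr1c12 followed at 1.29 to 1.35, and in all of them NZW/LacJ alone was low. For Cyp4b1 the closest genes were Mri1, Tbc1d30, Dedd2, Lyve1 and Prss8 at 0.13 to 0.15. Mri1, of the methionine salvage pathway, read 265 in C57BL/6J and 118 to 200 in the other strains.

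**Figure D3:**
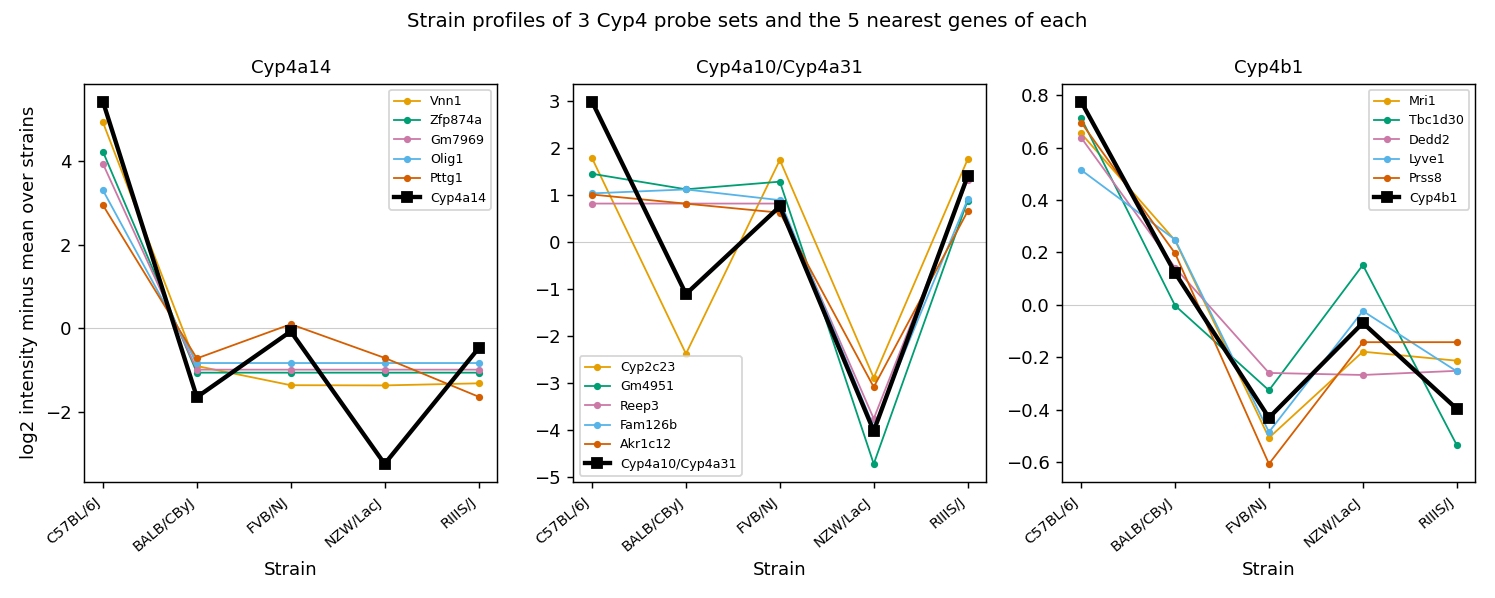
Log2 intensity minus the mean over the 5 strains (values under the floor raised to it) for Cyp4a14, the shared Cyp4a10 probe set and Cyp4b1 (black) and the 5 genes nearest to each (colours), with strains along the horizontal axis. The y axes differ between panels, and 3 of the 5 genes nearest to Cyp4a14 lie at the floor in every strain but C57BL/6J.

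The pathways around omega hydroxylation were read from lists drawn up with earlier results of these arrays known. Ppara, the receptor gene itself, read 4172 in C57BL/6J, against 3612 in FVB/NJ, 3332 in RIIIS/J, 2786 in NZW/LacJ and 2267 in BALB/CByJ. C57BL/6J was highest, as for Cyp4a14, but NZW/LacJ was not lowest. Among 25 detected genes of the list of PPAR-alpha and its other targets, Vnn1 and the fatty acid transporter gene Cd36 were called higher in C57BL/6J and 0 were called lower. The share of all 11871 detected genes called higher in C57BL/6J was 0.489%, and the share called lower was 0.421%. In NZW/LacJ 0 of the 25 were called in either direction, against 0.775% of all genes called higher and 0.741% called lower. In RIIIS/J Pdk4 was called higher, against 1% of all, and Lpin1 lower, against 1.73%, both named after their values were seen. In BALB/CByJ 0 were called, against 0.817% of all higher and 0.438% lower, and in FVB/NJ 0, against 6.01% higher and 0.548% lower. The median of the list, on a log2 scale that sets each strain against the average of the rest, was 0.19 in C57BL/6J and -0.46 in NZW/LacJ, and the median of all detected genes was -1.9e-05 and -0.018. In BALB/CByJ, where Cyp4a14 and the shared Cyp4a10 probe set were low, the list stood at 0.30. The part of PPAR-alpha in the Cyp4a differences was not tested.

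On the list of electron donors of P450 enzymes and of omega oxidation, 9 genes were detected, and 0 were called in any strain. Of all detected genes, 6.01% were called higher in FVB/NJ and 0.548% lower. RIIIS/J had 1% of all called higher and 1.73% lower, and BALB/CByJ had 0.817% higher and 0.438% lower. C57BL/6J had 0.489% higher and 0.421% lower, and NZW/LacJ had 0.775% higher and 0.741% lower. Aldh3a2, the fatty aldehyde dehydrogenase gene, named after its values were seen, read 3448 in C57BL/6J, against 2598 in RIIIS/J, 1778 in BALB/CByJ, 1623 in FVB/NJ and 889 in NZW/LacJ. Its order of strains differed from that of the shared Cyp4a10 probe set in the places of FVB/NJ and BALB/CByJ. Adh1, Adh4 and Adh5, alcohol dehydrogenase genes also named after their values were seen, read 29961 to 34042, 4602 to 5148 and 12956 to 15374 over the strains.

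Of 18 detected genes of peroxisomal beta oxidation, 2 were called lower in NZW/LacJ, 0 in C57BL/6J, 1 higher in BALB/CByJ, 2 higher in FVB/NJ and 1 lower in RIIIS/J. The matching shares of all detected genes were 0.741% lower in NZW/LacJ, 0.817% higher in BALB/CByJ, 6.01% higher in FVB/NJ and 1.73% lower in RIIIS/J. For C57BL/6J they were 0.489% higher and 0.421% lower. Acot3, a peroxisomal acyl-CoA thioesterase gene, read 11.8 in NZW/LacJ, against 42.2 to 718 in the other strains. Crat, the carnitine acetyltransferase gene, read 94.1 in NZW/LacJ, against 252 to 391. The median of the list was -0.42 in NZW/LacJ and 0.28 in C57BL/6J, with 2 of 18 genes above the mean of the other strains in NZW/LacJ and 16 of 18 in C57BL/6J. Acaa1b, a peroxisomal thiolase gene named after its values were seen, read 20095 in NZW/LacJ, against 35630 to 44563 in the others.

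Genes of eicosanoid metabolism share substrates with the Cyp4 enzymes. Of 9 detected, 0 were called in C57BL/6J, NZW/LacJ or RIIIS/J. In those strains 0.489%, 0.775% and 1% of all detected genes were called higher and 0.421%, 0.741% and 1.73% lower. Alox5ap, of leukotriene synthesis, was called higher in FVB/NJ, as were 6.01% of all detected genes, and lower in BALB/CByJ, as were 0.438%. Cyp2c23, described above, was low in both BALB/CByJ and NZW/LacJ and so was apart in neither. Ephx2, the soluble epoxide hydrolase gene, named like Alox5ap after its values were seen, read 12692 in NZW/LacJ and 14001 to 18373 in the others.

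Cyp4a12a was set beside male-biased liver genes. Of 18 detected, Susd4, Serpina12, Ugt2b38 and Sult5a1 were called higher in NZW/LacJ, the highest strain for Cyp4a12a, against 0.775% of all detected genes, and 0 were called lower, against 0.741%. The list had a median of 0.63 in NZW/LacJ, with 16 of 18 genes above the mean of the other strains, and Cyp4a12a stood at 0.61 on the same scale. In RIIIS/J, the lowest strain for Cyp4a12a, the list stood at -0.16 and Cyp4a12a at -0.36, and the list was lowest in FVB/NJ at -0.21. In BALB/CByJ, Susd4, Serpina12 and Sult5a1 were called lower, against 0.438% of all, and Cyp4a12a stood at -0.069. In C57BL/6J the list stood at 0.079 and Cyp4a12a at -0.15. Of the female-biased list 7 genes were detected. Acot3, also on the peroxisomal list, was called lower in NZW/LacJ, against 0.741% of all, and higher in FVB/NJ, against 6.01%. Cyp2b9 and Cyp17a1, each detected on 2 arrays, were called higher in RIIIS/J, against 1% of all. Abcd2 was called higher in BALB/CByJ, against 0.817%, and these 3 were named after their values were seen. Ugt2b38, which encodes a glucuronosyltransferase, read 3468 in NZW/LacJ, against 185 to 1056.

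Genes with a daily rhythm also differed between the arrays. Cyp4a10 and Cyp4a14 are known to cycle through the day in mouse liver. Dbp, a clock output factor gene named after its values were seen, read 6439 in C57BL/6J, 8951 in BALB/CByJ, 4939.5 in FVB/NJ, 1023 in NZW/LacJ and 75.5 in RIIIS/J. The median of the 13 clock and output genes was 1.03 in BALB/CByJ, 0.32 in C57BL/6J and 0.31 in FVB/NJ, against -0.73 in NZW/LacJ and -1.82 in RIIIS/J. That median joins genes that moved in opposite directions. Arntl read 68.1 in NZW/LacJ and 156 in RIIIS/J, against 13.7 to 14.1 in the other strains. Clock read 723 and 756 in the same 2 strains, against 214 to 286. Calls were most numerous in RIIIS/J, where Arntl was higher and Dbp, Tef, Nr1d1 and Nr1d2 were lower, against 1% of all detected genes called higher and 1.73% lower. Npas2 was called higher in NZW/LacJ, against 0.775% of all, and Ciart in BALB/CByJ, against 0.817%. Apart from Npas2, these genes were named after their values were seen. The time of day of collection is not given in the sources used here, and its part in the Cyp4a differences was not tested.

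**Figure D4:**
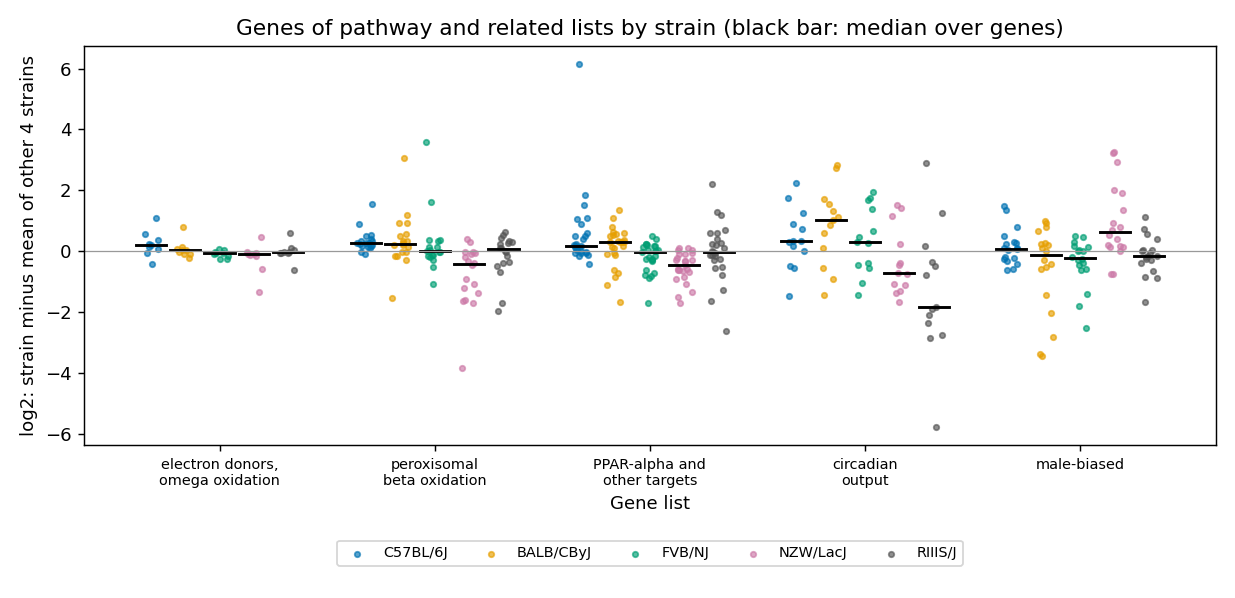
Log2 intensity of each strain less the average of the rest for detected genes (points) of 5 lists, with medians as black bars. In NZW/LacJ the peroxisomal and PPAR-alpha lists have medians of -0.42 and -0.46 and the male-biased list one of 0.63. The clock list runs from 1.03 in BALB/CByJ to -1.82 in RIIIS/J.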

How the data were processed

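The authors deposited 1 intensity per probe set and array on a linear scale, and the submitters' processing notes name GCRMA and GCOS for making them. Their versions and settings are not given in the sources used here. GCRMA normalises arrays together and adjusts for probe background. Of 45101 probe sets, 64 controls were left out. Genes were named by the platform annotation: 34945 probe sets had 1 gene, 932 several and 9160 none, and symbols were updated through the RefSeq table of GRCm38.p6.

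Intensities were raised to a floor (8.49, the 95th percentile of 83 olfactory, vomeronasal and taste receptor probe sets) and converted to log2. A probe set was detected when at least 1 array reached the floor, and the number detected per array was 22294 to 23059. A gene outside the family took its probe set with the highest mean. The threshold was 2-fold. With 1 array per strain no test was possible, and precision is limited by the small number of arrays. The counting of calls was tested on simulated data for probe sets well above the floor. That test does not cover values near the floor.

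Members and lists were chosen with earlier results of these data known. Named genes were the members, the other Cyp4 genes, the 5 nearest genes by profile, Ppara, and up to 6 genes per list called in C57BL/6J or NZW/LacJ. Some listed genes, such as Por, had no probe set by symbol and were not analysed here. Other genes were named after their values were seen and are marked so in the text. Most cell type markers named singly, such as Apob, Marco and Csf3r, were also named in that way but carry no mark. Alternatives changed the floor, normalisation, threshold, probe sets and arrays used. Python 3.11.15, numpy 2.4.6, pandas 2.3.3, statsmodels 0.14.6 and matplotlib 3.10.9 were used.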

Additional observations from a re-analysis of the deposited data

How the results depend on the processing

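No paired analysis was possible because there was a single array for every strain. Of the 9 Cyp4 probe sets, 2 were apart in C57BL/6J and 2 in NZW/LacJ. The count was 1 in C57BL/6J with a 3-fold threshold, where the shared Cyp4a10 probe set fell just short at 2.99999-fold. Leaving out probe sets named _s_at, _x_at or _a_at gave a count of 1 in each of these strains, since that removes the shared probe set. With a floor from the 99th percentile (28.2) the count was 1 in NZW/LacJ, because Cyp4a14 is then under the floor there, and the range of Cyp4a14 was 7.10 on the log2 scale, against 8.64 otherwise. Without the C57BL/6J array the ranges were 3.16 for Cyp4a14, 5.43 for the shared Cyp4a10 probe set and 0.55 for Cyp4b1, which no longer reached 2-fold. Leaving out FVB/NJ, RIIIS/J or both, of which the settings without RIIIS/J were chosen after seeing the data, left each count of probe sets apart as it was, and without both arrays 2 rather than 3 probe sets ranged by at least 2-fold. Quantile normalisation, a loess correction (span 0.3) and no floor left all of these counts as they were. One array per strain and values near the floor limit these results.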

Other observations

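The genes beside the Cyp4 genes were read in chromosome order, taking the 5 nearest detected genes on each side. Around the Cyp4a and Cyp4b1 cluster on chromosome 4, 1 of the 10 flanking genes ranged by at least 2-fold over the strains, against 30.9% of all detected genes. It was Mknk1, a kinase gene, at 118 in BALB/CByJ and 52.0 in RIIIS/J. The flanking gene closest to Cyp4b1, Efcab14, read 90.4 in NZW/LacJ and 156 to 179 in the other strains.

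Around the Cyp4f cluster on chromosome 17, 5 of the 10 flanking genes ranged by at least 2-fold, against 30.9% of all detected genes. One of them, Rasal3, read 37.6 in FVB/NJ and was under the floor in the other strains. Akap8, an anchoring protein gene, read 117 in RIIIS/J and 139.6 in NZW/LacJ, against 338 to 463 in the other strains. Zfp871, a zinc finger gene inside the cluster, read 718 in RIIIS/J and 825 in NZW/LacJ, against 1328 to 1455. Pglyrp2, a peptidoglycan recognition gene, read 937 in FVB/NJ and 1680 to 2264 elsewhere. Beside Cyp4v3 on chromosome 8, 3 of the 10 flanking genes ranged by at least 2-fold, against 30.9% of all detected genes. There the coagulation factor gene F11 read 4415 in BALB/CByJ and 1634 to 2832 in the other strains, while the adjoining Klkb1 read 9940.4 to 12419.6. These genes were named after their values were seen.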
